A study of Mus musculus with 6 samples.

Results

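Aquaporins are membrane channels that let water follow osmotic gradients. In the cornea they serve the cell layers that keep the stroma clear: the endothelium on its inner face, which pumps fluid out, and the stratified epithelium on its outer face. Some members, the aquaglyceroporins, also pass glycerol. The genes described here are the 6 aquaporins Aqp1, Aqp3, Aqp4, Aqp5, Aqp7 and Aqp11, taken by symbol from 57180 gene identifiers as water channels of endothelium, epithelium and neighbouring ocular tissue. The mouse genome has 6 others, Mip, Aqp2, Aqp6, Aqp8, Aqp9 and Aqp12.

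RNA-seq was carried out on mouse corneal endothelial cells in 2 groups of 3 libraries each. The libraries labelled Tcf4+/- came from Col8a2 Q455K/Q455K mice in which, per the labels, 1 copy of Tcf4 was knocked out; Tcf4 encodes a transcription factor of the E protein family. The Col8a2 libraries came from Col8a2 Q455K/Q455K mice without that knockout, a model of Fuchs endothelial corneal dystrophy in which a collagen chain of Descemet membrane is mutant. Both groups therefore carried the Col8a2 mutation on both alleles, and there was no wild-type group. The age and sex of the mice, the design of the Tcf4 allele and the number of mice per library are not stated in the labels. The p-values therefore rest on the spread between libraries, part of which may be technical.

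Total estimated counts ran from 30344114 to 54265433 in the Tcf4+/- group, with the lowest in replicate 3, and from 46644722 to 51302355 in the Col8a2 group. Tcf4 itself stood at 440, 599 and 373 CPM in the libraries labelled Tcf4+/-, against 313, 470 and 430 CPM in the Col8a2 libraries. The RNA level of the targeted gene was thus not lower in the libraries labelled Tcf4+/-. The labels state a genotype and no RNA level, and the groups are named by their labels only. CPM is a count scaled to library size (counts per 1e6) after adjustment by TMM, the trimmed mean of M-values. All 13 matched corneal endothelium markers had counts, with summed levels of 12633 to 23074 CPM in the Tcf4+/- group and 15101 to 22992 CPM in the Col8a2 group. All 14 corneal epithelium markers also had counts, with sums of 5471 to 12398 CPM in the Tcf4+/- group and 6210 to 13506 CPM in the Col8a2 group. Lens markers stood apart in Tcf4+/- replicates 2 and 3, at sums of 4367 and 11563 CPM, against 101 CPM in Tcf4+/- replicate 1 and 33.9 to 629 CPM in the Col8a2 group. Schwann cell markers summed to 247 to 363 CPM in the Tcf4+/- group and 202 to 289 CPM in the Col8a2 group, and immune cell markers to 441 to 751 CPM in the Tcf4+/- group and 279 to 974 CPM in the Col8a2 group.

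Tcf4 and the other E proteins bind E-boxes, short DNA sites of the form CANNTG, with a preference for CACCTG or its complement CAGGTG. The stretch of 250 bases before the RefSeq start is shown for Aqp1 and for Aqp3, and each holds 1 such match. The sequences are from RefSeq on build GRCm38.p6, read 5′ to 3′ on the strand of the gene, with the match in capitals.
Aqp1, chr6:55336049-55336298, + strand: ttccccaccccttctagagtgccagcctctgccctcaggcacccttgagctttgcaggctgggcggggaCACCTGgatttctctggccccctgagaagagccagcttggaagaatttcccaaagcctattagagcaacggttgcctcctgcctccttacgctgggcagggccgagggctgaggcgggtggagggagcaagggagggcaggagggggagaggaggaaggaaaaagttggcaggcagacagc
Aqp3, chr4:41098184-41098433, - strand: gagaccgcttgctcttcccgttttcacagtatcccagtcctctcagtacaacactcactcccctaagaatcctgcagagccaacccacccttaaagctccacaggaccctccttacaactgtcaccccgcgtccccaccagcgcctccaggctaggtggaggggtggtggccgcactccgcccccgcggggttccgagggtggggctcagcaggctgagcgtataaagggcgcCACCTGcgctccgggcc

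The match begins at position -181 relative to the start of Aqp1 and at -17 relative to that of Aqp3, where a TATAAA stretch on the strand of the gene begins at -29. CACCTG or CAGGTG occurred in 17.2% of 32851 such windows over all genes, and TATAAA on the strand of the gene in 7.59%. No match was held by the window of Aqp11 or by that of Aqp5, which encodes the apical water channel of the corneal epithelium. Each of the 2 windows of Aqp7 held 1 match. The window of Aqp4 was not analysed here. A match of letters is a description of the window and no sign that a factor binds there.

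Aqp1 and Aqp5 carried nearly all aquaporin transcripts, and neither differed between the groups beyond the spread of the libraries. Per kilobase of effective transcript length, the scale on which genes can be compared, Aqp1 stood at 1425 ± 869 CPM per kb in the Tcf4+/- group and 1757 ± 483 CPM per kb in the Col8a2 group (mean ± SD, n = 3 each). Aqp5 followed at 632 ± 530 CPM per kb in the Tcf4+/- group and 604 ± 272 CPM per kb in the Col8a2 group. Aqp3 ranked below both at 75.4 ± 52.1 CPM per kb in the Tcf4+/- group and 53.4 ± 30.04 CPM per kb in the Col8a2 group. Aqp4 and Aqp11 were near 1 to 3 CPM per kb on average, and Aqp7 was close to absent.

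**Figure D1:**
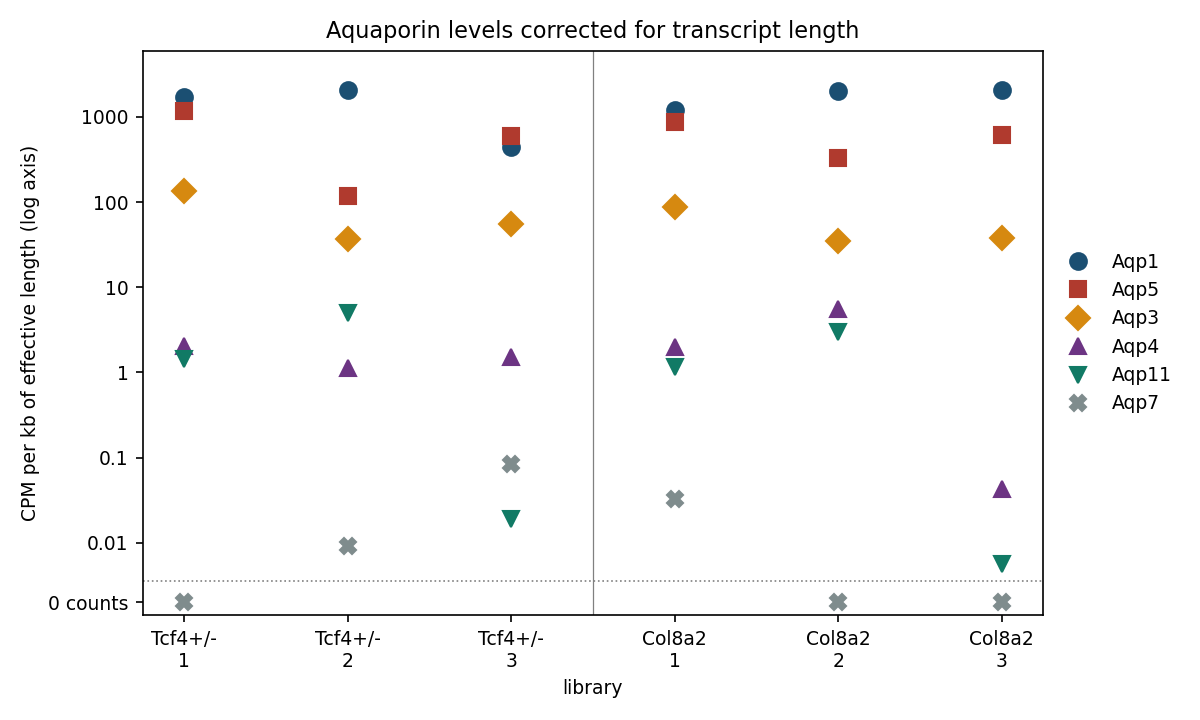
Level of each of the 6 aquaporins in each library, as TMM-scaled CPM per kilobase of effective length on a log axis, with Tcf4+/- libraries left of Col8a2 libraries and libraries without a count on the row marked 0 counts. Aqp1 is highest in every library but Tcf4+/- replicate 3, where Aqp5 lies above it, and Aqp3 lies below both in all 6.

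The order of the members was the same at the top in 5 of 6 libraries. Aqp1 exceeded Aqp5 by 1.52 ± 1.68 on the log2 scale of level per kb (mean ± SD over 6 libraries), so these neighbours did not differ beyond their spread. Aqp5 exceeded Aqp3 in all 6 libraries, by 3.14 ± 0.78 on the log2 scale. Aqp3 exceeded Aqp4 in all 6, by 5.69 ± 2.32. Aqp4 lay above Aqp11 in 5 of 6 libraries, with a difference of 1.55 ± 2.84 that is smaller than its spread.

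The balance between Aqp5 and Aqp1 varied widely within each group. Aqp1 made up 56.8%, 92.9% and 40.2% of the summed level per kb of the 6 members in Tcf4+/- replicates 1, 2 and 3, against 55.5%, 84.5% and 75.9% in Col8a2 replicates 1, 2 and 3. Aqp5 made up 38.6%, 5.19% and 54.7% in the Tcf4+/- libraries, against 40.3%, 13.7% and 22.7% in the Col8a2 libraries. The lowest and the highest share of either gene both fell in the Tcf4+/- group, around all 3 Col8a2 values.

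Aqp1 (ENSMUSG00000004655) encodes the water channel of the corneal endothelium, which is also made by keratocytes, capillary endothelium and red cells. It stood at 4127, 5192 and 1100 CPM in Tcf4+/- replicates 1, 2 and 3, against 2900, 4829 and 4916 CPM in Col8a2 replicates 1, 2 and 3. Tcf4+/- replicate 3 was the lowest of the 6 libraries and Tcf4+/- replicate 2 the highest, so the groups overlapped. The fitted log2 fold change, Tcf4+/- over Col8a2, was -0.28 (SE 0.55, 95% interval -1.51 to 0.95), which is a fold of 0.824 (0.351 to 1.94). edgeR's quasi-likelihood test gave a Benjamini-Hochberg adjusted p of 0.9999 (unadjusted p = 0.623). The sign of this value rested on 1 library: without Tcf4+/- replicate 3 it was 0.14 (SE 0.36, edgeR unadjusted p = 0.709).

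The low level of Aqp1 in Tcf4+/- replicate 3 went with lower levels of most listed endothelial markers. Relative to the mean of the other 5 libraries on the log2 CPM scale, Aqp1 lay at -1.97 and Atp1b1, a beta subunit of the sodium pump, at -2.02. Of 13 corneal endothelium markers, 11 were lower in this library than in the mean of the others, with a median difference of -0.94. The median of all genes tested was 0.04. The markers ran from -2.50 to 0.35, with Slc4a11 at -0.44 and Car3, the most abundant of the list, at -0.16. Summed keratocyte markers were at 13293 CPM there, within the 7549 to 21965 CPM of the other libraries, and erythroid markers at 2943 CPM, within 533 to 6128 CPM. Summed vascular endothelium markers were at 142 CPM there, within 55.4 to 373 CPM. Lens and photoreceptor markers were higher there than in any other library, at sums of 11563 CPM against at most 4367 CPM and of 10993 CPM against at most 5135 CPM. In bulk libraries fewer cells of a type and less RNA per cell cannot be told apart, and the part of endothelial content in the Aqp1 values was not tested beyond the fit with the level of these markers as a covariate, where the log2 fold change of Aqp1 was -0.37.

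By the smallest root mean square difference in centred log2 CPM over the 6 libraries, the gene most like Aqp1 among 12979 protein-coding genes was Atp1b1. The difference was 0.059, against 0.784 for Aqp1 from its own mean and a median of 0.901 over all genes compared. Atp1b1 stood at 639, 890 and 173 CPM in the Tcf4+/- libraries, against 479, 818 and 764 CPM in the Col8a2 libraries. The ratio of Aqp1 to Atp1b1 in CPM was 6.45, 5.83 and 6.35 in the Tcf4+/- libraries, against 6.05, 5.91 and 6.44 in the Col8a2 libraries. The ratio thus stayed within a narrow band while Aqp1 itself varied 4.72-fold. The next nearest were Zfp513, a zinc finger gene, at 0.072 and Svep1, a secreted adhesion protein gene, at 0.096. These genes were picked out of many for their likeness over 6 points that share depth and scaling, so the values are a description.

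**Figure D2:**
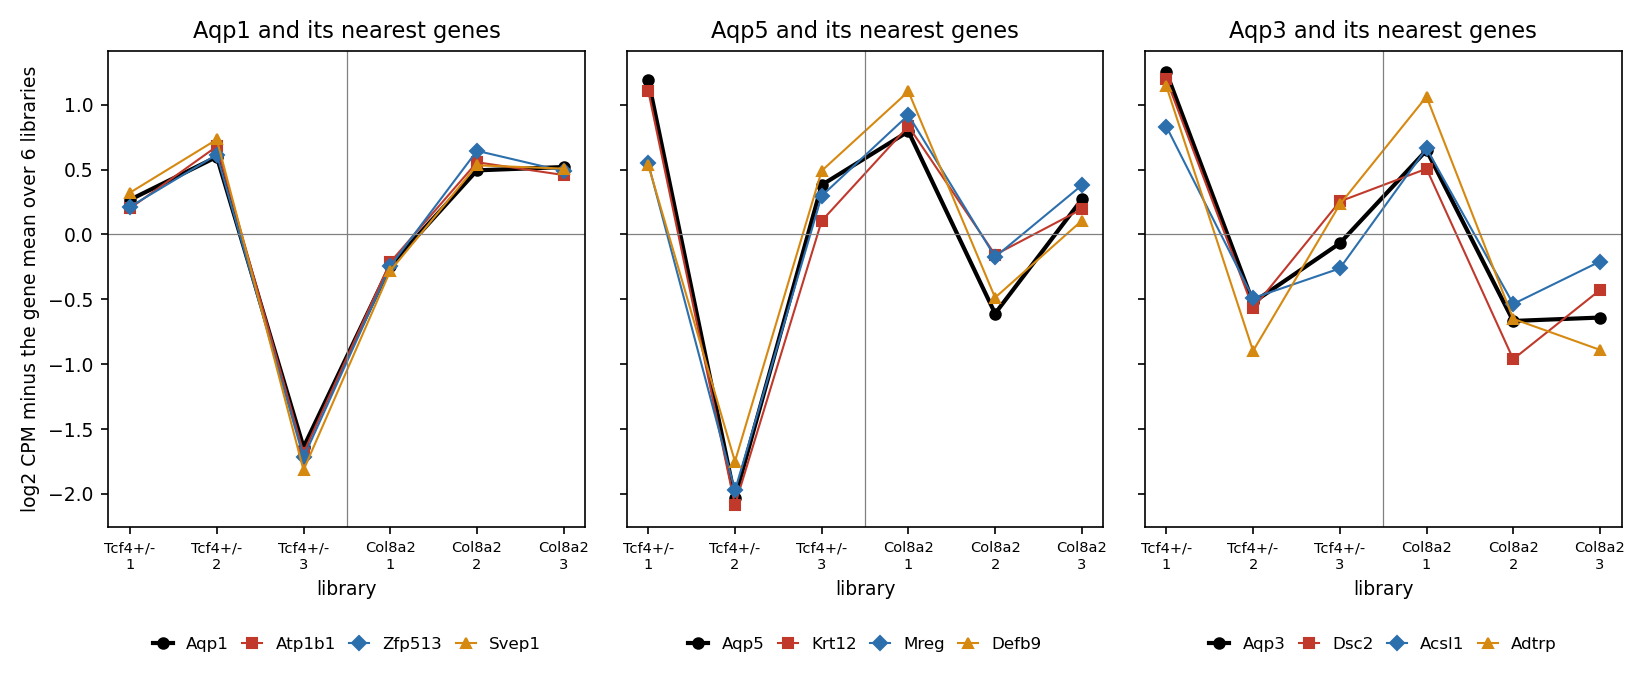
log2 CPM minus the mean of the gene over the 6 libraries, for Aqp1, Aqp5 and Aqp3 (black) and the 3 protein-coding genes nearest to each, with Tcf4+/- libraries left of Col8a2 libraries. Aqp1 and its neighbours dip in Tcf4+/- replicate 3, and Aqp5 and its neighbours in Tcf4+/- replicate 2.

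Aqp5 (ENSMUSG00000044217) encodes the apical water channel of the corneal epithelium, lacrimal gland and airway glands. It stood at 1481, 159 and 844 CPM in Tcf4+/- replicates 1, 2 and 3, against 1124, 425 and 782 CPM in Col8a2 replicates 1, 2 and 3. The highest and the lowest library were both labelled Tcf4+/-, and they differed 9.33-fold. The fitted log2 fold change was 0.09 (SE 0.68, 95% interval -1.42 to 1.61; edgeR adjusted p = 0.9999, unadjusted p = 0.895). This value carried no stable sign: it was -0.64 without Tcf4+/- replicate 1, 0.59 without Tcf4+/- replicate 2 and -0.20 without Col8a2 replicate 2.

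The gene most like Aqp5 was Krt12, the keratin of differentiated corneal epithelium, at a root mean square difference of 0.223, against a median of 1.19 over all genes compared. Krt12 stood at 4585, 501 and 2288 CPM in the Tcf4+/- libraries, against 3796, 1909 and 2436 CPM in the Col8a2 libraries. The libraries kept the same order by Krt12 as by Aqp5 except that Tcf4+/- replicate 3 and Col8a2 replicate 3 changed places. The ratio of Aqp5 to Krt12 in CPM was 0.323, 0.317 and 0.369 in the Tcf4+/- libraries, against 0.296, 0.223 and 0.321 in the Col8a2 libraries. Mreg, which encodes melanoregulin, followed at 0.328, and Defb9, a beta-defensin gene, at 0.334. Krt12, Mreg and Defb9 were picked for their likeness to Aqp5 over these same 6 libraries. The shared order and the ratio follow from that choice and are a description. The same holds for the nearest genes of Aqp3, Aqp4 and Aqp11 given below. In Tcf4+/- replicate 2, Aqp5 and Krt12 lay at -2.44 and -2.50 relative to the mean of the other 5 libraries on the log2 scale, and 10 of 14 epithelial markers were lower there, with a median of -0.58. The place of this library on the epithelial list depended on the measure. By sum it was the lowest library, at 5471 CPM, against 6210 CPM in Col8a2 replicate 2. By mean log2 CPM it was at 6.25, against 6.18 in Col8a2 replicate 2. Aqp5 was at 159 CPM in Tcf4+/- replicate 2 and 425 CPM in Col8a2 replicate 2.

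With the mean level of the epithelial markers as a covariate, the log2 fold change of Aqp5 was -0.41 (SE 0.46, edgeR unadjusted p = 0.391). The part of epithelial cells in the Aqp5 values was not tested beyond this fit, in which 6 libraries carry 3 terms.

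Aqp3 (ENSMUSG00000028435) encodes an aquaglyceroporin of the basolateral membranes of epithelia. It stood at 199.5, 58.4 and 80.1 CPM in Tcf4+/- replicates 1, 2 and 3, against 132, 52.9 and 53.8 CPM in Col8a2 replicates 1, 2 and 3. Replicate 1 was the highest library in either group, and the groups overlapped. The fitted log2 fold change was 0.50 (SE 0.51, 95% interval -0.65 to 1.66), a fold of 1.42 (edgeR adjusted p = 0.9999, unadjusted p = 0.351). Without Tcf4+/- replicate 1 the value was -0.20.

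Among the 5 members tested, Aqp3 was closest in pattern to Aqp5, at a root mean square difference of 0.745, against 1.17 to Aqp1. Its nearest genes were Dsc2, a desmosomal cadherin, at 0.208, Acsl1, a ligase of long-chain fatty acids to coenzyme A, at 0.264 and Adtrp, a membrane hydrolase, at 0.278. Dsc2 stood at 117.2, 34.5 and 61.0 CPM in the Tcf4+/- libraries, against 72.6, 26.3 and 38.0 CPM in the Col8a2 libraries. The median difference of the 14 epithelial markers from Aqp3 was 0.683, against 0.878 over all genes compared, and that from Aqp5 was 0.785, against 1.19. The 13 endothelial markers had a median difference of 1.39 from Aqp5 and 0.442 from Aqp1, and the epithelial markers 1.22 from Aqp1.

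**Figure D3:**
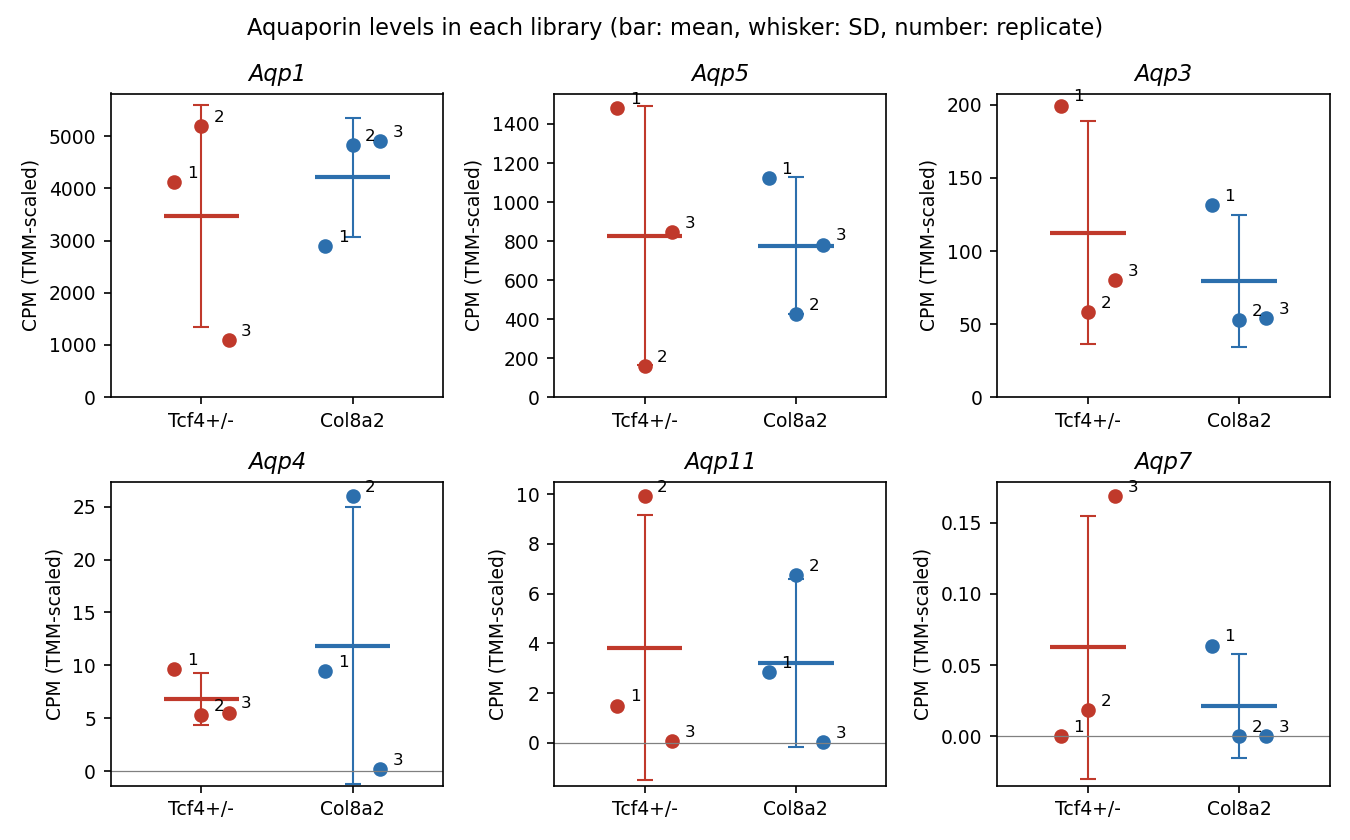
TMM-scaled CPM of each aquaporin in each library, with the Tcf4+/- group left of the Col8a2 group, bars at the mean, whiskers of 1 SD and the replicate number beside each point. The groups overlap for all 6 genes. Aqp4 lies below 0.2 CPM in Col8a2 replicate 3, Aqp11 in replicate 3 of both groups, and Aqp7 in every library.

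Aqp4 (ENSMUSG00000024411) encodes the water channel of retinal glia, ciliary epithelium and fast muscle fibres. It was found at 9.62, 5.34 and 5.54 CPM in Tcf4+/- replicates 1, 2 and 3, against 9.45, 26.0 and 0.198 CPM in Col8a2 replicates 1, 2 and 3. The 3 Tcf4+/- libraries lay between the Col8a2 extremes, which were 1286 and 10 estimated counts in replicates 2 and 3. The fitted log2 fold change was -0.80 (SE 1.13, 95% interval -3.32 to 1.72; edgeR adjusted p = 0.9999, unadjusted p = 0.496). Without Col8a2 replicate 2 it was 0.50.

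The summed level of retinal glia markers, a list that holds Aqp4 itself, was lowest in Tcf4+/- replicate 3 at 5335 CPM and highest in Col8a2 replicate 2 at 17267 CPM, the library where Aqp4 was highest. It was nearly as high in Tcf4+/- replicate 2, at 17094 CPM, where Aqp4 was lower than in 4 of the other 5 libraries. Most of that sum was Apoe, which many cell types express. By mean log2 CPM, which also takes in Aqp4, the list was lowest in Col8a2 replicate 3, at 5.51. It was highest in Col8a2 replicate 2, at 6.64, with Tcf4+/- replicate 2 at 6.27. Ciliary and iris markers summed to 861 to 2011 CPM in the Tcf4+/- group and 429.5 to 1578 CPM in the Col8a2 group. Their lowest value was in Col8a2 replicate 3, where Aqp4 was lowest, and the highest in Tcf4+/- replicate 2. That low value was not particular to this list: keratocyte, vascular endothelium, fat cell, Schwann cell and immune sums were also lowest in Col8a2 replicate 3. The sums of corneal endothelium, corneal epithelium, lens, erythroid, retinal glia, photoreceptor and skeletal muscle markers were not. Photoreceptor markers summed to 2592 to 10993 CPM in the Tcf4+/- group and 2563 to 3643 CPM in the Col8a2 group. Skeletal muscle markers summed to 118 to 286 CPM in the Tcf4+/- group and 20.5 to 108 CPM in the Col8a2 group. The part of these tissues in the Aqp4 values was not tested. The gene nearest to Aqp4 in pattern was Tnfrsf1b, a receptor of tumour necrosis factor, at 0.196, followed by Greb1 at 0.440 and Psg16 at 0.451, against 2.11 for Aqp4 from its own mean.

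Aqp11 (ENSMUSG00000042797) encodes a distant member of the family that sits in the endoplasmic reticulum. It had 71, 546 and 2 estimated counts in Tcf4+/- replicates 1, 2 and 3, against 134, 335 and 1 in Col8a2 replicates 1, 2 and 3. In each group replicate 2 was the highest and replicate 3 was at or below the floor of 3 counts. In CPM the levels were 1.504, 9.92 and 0.068 in the Tcf4+/- libraries, against 2.85, 6.76 and 0.020 in the Col8a2 libraries. The fitted log2 fold change was 0.26 (SE 1.70, 95% interval -3.55 to 4.06), and the interval covers folds between 0.0855 and 16.7 (edgeR adjusted p = 0.9999, unadjusted p = 0.883).

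The spread of Aqp11 within groups was larger than that of 99.4% of the genes tested. Its pooled SD of log2 CPM within groups was 3.44, against a median of 0.669 over all genes, and that of Aqp4 was 2.54. The pooled SD of Aqp1, Aqp3 and Aqp5 was 0.907, 0.840 and 1.29, larger than in 63.3%, 60.3% and 75.0% of genes. The genes nearest to Aqp11 were Gulo, the last enzyme of vitamin C synthesis, at 0.439, Sla, a Src-like adaptor, at 0.564 and Ccl2, a chemokine, at 0.781, all 3 of which were at 0.068 CPM or less in both replicates numbered 3. The replicate numbers do not pair mice in the labels.

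Aqp7 (ENSMUSG00000028427) encodes the glycerol channel of fat cells and was close to the limit of detection. It had 0, 1 and 5 estimated counts in Tcf4+/- replicates 1, 2 and 3, against 3, 0 and 0 in Col8a2 replicates 1, 2 and 3. The pooled counts of 6 and 3 give a depth-scaled ratio of 2.21 with an exact 95% interval from 0.472 to 13.6, which covers counting error only. Aqp7 did not pass the filter on low counts and was not tested. Of 8 fat cell markers, Plin1 and Lep were at 0 in all 6 libraries, and the summed level of the list was 27.6 to 52.3 CPM in the Tcf4+/- group and 18.8 to 91.3 CPM in the Col8a2 group.

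Of the 6 aquaporins, 5 were tested, 0 were called higher and 0 lower, and the groups overlapped for each. Over all 17639 genes in the same edgeR fit, 0.0% were called at an adjusted p of 0.05, 427 (2.42%) had an unadjusted p under 0.05, and the groups did not overlap in 8.1%. DESeq2 called 107 of 20874 genes (0.513%), with 0.364% higher and 0.149% lower, and limma voom called 0. DESeq2 called none of the 5, with log2 fold changes of -0.29 for Aqp1, 0.50 for Aqp3, -0.80 for Aqp4, 0.09 for Aqp5 and 0.24 for Aqp11, and an adjusted p of 0.9998 for each. The median log2 fold change of the 5 was 0.09, against 0.00 over all genes tested. The 95% interval of the fold ran from 0.351 to 1.94 for Aqp1 and from 0.638 to 3.15 for Aqp3. For each gene a change inside its own interval cannot be told from none with these libraries. The intervals are not adjusted for the number of genes tested. Their limits are therefore not the smallest changes that the test could call.

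**Figure D4:**
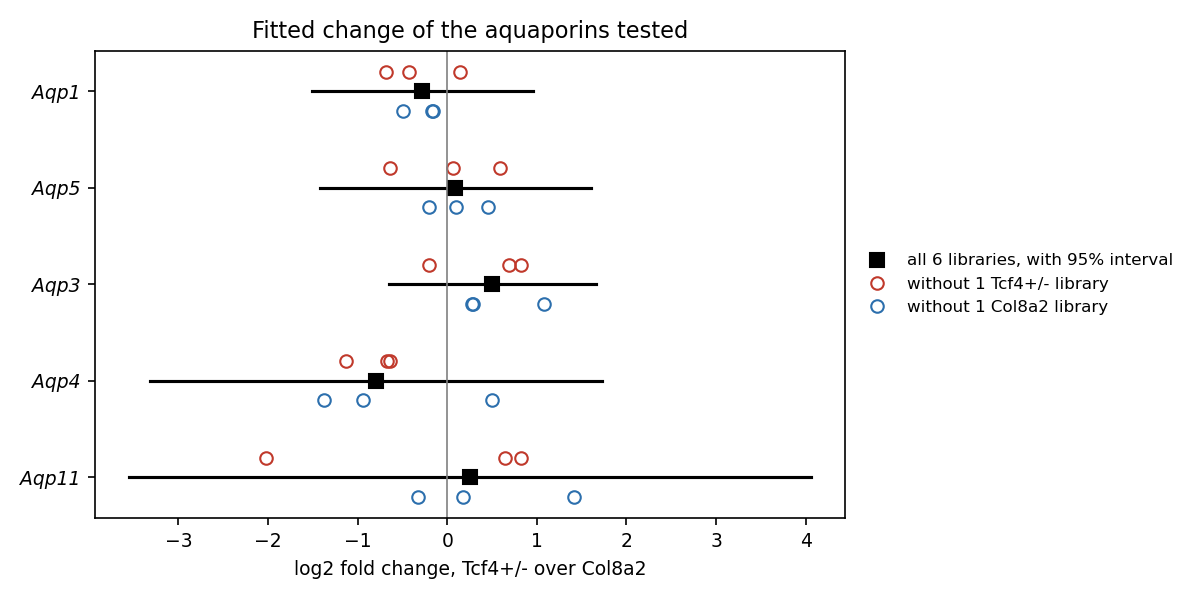
Fitted log2 fold change, Tcf4+/- over Col8a2, of the 5 aquaporins tested with edgeR, with the 95% interval from all 6 libraries (black) and the values with 1 library left out (circles). Every interval spans 0, and leaving out a single library moves each gene to both sides of 0.

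Among the other aquaporins, Mip, the lens fibre channel also called Aqp0, followed the lens. Mip had 4, 245 and 360 estimated counts in Tcf4+/- replicates 1, 2 and 3, against 13, 0 and 6 in Col8a2 replicates 1, 2 and 3. The 2 libraries with high Mip were those with high lens markers, where Cryaa, an alpha crystallin, stood at 1109 and 4266 CPM, against 16.03 to 249 CPM in the other 4. The fitted log2 fold change of Mip was 5.38 (SE 1.91), which did not pass (edgeR adjusted p = 0.9999, unadjusted p = 0.0188; DESeq2 adjusted p = 0.0818). Mip is itself on the lens list, and the part of lens material in its value was not tested.

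The remaining aquaporins were low throughout. Aqp2, the vasopressin-regulated channel of the kidney collecting duct, had 95, 62 and 10 estimated counts in the Tcf4+/- libraries, against 3, 190 and 40 in the Col8a2 libraries. Its log2 fold change was -0.43 (SE 1.55, edgeR unadjusted p = 0.788), and its order over the libraries was not that of Aqp5. Aqp9, an aquaglyceroporin of liver and leukocytes, stood at 2.84, 1.69 and 1.79 CPM in the Tcf4+/- libraries, against 4.74, 1.62 and 2.87 CPM in the Col8a2 libraries, and its log2 fold change was -0.54 (SE 0.96). Aqp8 had 51, 4 and 0 estimated counts in the Tcf4+/- libraries, against 0, 0 and 19 in the Col8a2 libraries. Aqp6, of kidney intercalated cells, had 0 counts in the Tcf4+/- group, which allows up to 0.0226 CPM over the group, and 5 in the Col8a2 group, all in replicate 3. Aqp12, of pancreatic acinar cells, had 0 counts in all 6 libraries, which allows up to 0.0226 CPM in the Tcf4+/- group and 0.0205 CPM in the Col8a2 group.

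Genes that work beside the aquaporins did not pass the test either. Of 19 tested genes of endothelial fluid transport, 0 were called and 0 had an unadjusted p under 0.05. Of these, 7 were fitted higher and 12 lower, with a median log2 fold change of -0.14. Over all 17639 genes in the same edgeR fit, 0 were called and 2.42% had an unadjusted p under 0.05, with a median of 0.00. So few would pass in a list of this size at the share over all genes, and the same holds for the lists below. Cftr, a chloride channel, and Ano1, a calcium-activated chloride channel, had the smallest p. Their log2 fold changes were -3.92 (SE 2.48) and -1.12 (SE 0.74), with edgeR unadjusted p of 0.146 and 0.161. Cftr was near 0 in most libraries, at 0, 0 and 0.236 CPM in the Tcf4+/- libraries, against 0.850, 2.64 and 0 CPM in the Col8a2 libraries. Bsg, the chaperone of lactate transporters, and Slc4a11, a transporter of the endothelium that is mutated in corneal dystrophies, had the highest levels. Bsg averaged 5217 ± 2912 CPM in the Tcf4+/- group and 4823 ± 1827 CPM in the Col8a2 group, and Slc4a11 averaged 4868 ± 1595 CPM in the Tcf4+/- group and 3815 ± 2609 CPM in the Col8a2 group (mean ± SD, n = 3 each).

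Of 11 genes that anchor water channels or sense swelling, 0 were called, with a median log2 fold change of -0.07. Dtna, which encodes a dystrobrevin of the dystrophin complex, had a log2 fold change of 0.70, and Ezr and Dag1, the most abundant of the list, 0.21 and -0.07. Of 9 genes of the response to osmotic stress, 0 were called, with a median of -0.04. Stk39, a kinase that activates ion cotransporters, had the smallest p in that list, at 24.3, 29.5 and 18.8 CPM in the Tcf4+/- libraries, against 42.4, 45.6 and 28.4 CPM in the Col8a2 libraries, with a log2 fold change of -0.68 (edgeR unadjusted p = 0.0712, adjusted p = 0.9999). Slc6a6, the taurine transporter, and Akr1b3, aldose reductase, had log2 fold changes of -0.50 and -0.03. Of 8 tested genes of glycerol handling, 0 were called, with a median of -0.05, and Gpd1, Mgll and Pnpla2 had log2 fold changes of 1.02, -0.46 and 0.17.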

How the data were processed

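Each library has 1 deposited table with a row for every Ensembl gene, per the file headers. The authors' expected counts (9.97% of values not whole) are not scaled to depth, whereas the authors' TPM values are scaled to length and depth. Other deposited columns, in bases, are the length and effective length. The submitters' processing notes list RSEM, STAR, fastp 0.23.2, FastQC 0.12.1 and DESeq2, and build GRCm39; the annotation release is not given in the sources used here. Of 57180 identifiers, 51933 matched a symbol in GENCODE M21 (GRCm38), used for names only. The promoter table is from RefSeq on GRCm38.p6 and was not joined to the files by position. Libraries were made with SMART-Seq HT and Nextera XT kits, per the labels' protocols, which do not mark strand, so reads of a gene and of an antisense partner cannot be told apart.

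Estimated counts were rounded, filtered with filterByExpr (17639 genes kept), and scaled by TMM. The genotype groups were compared in edgeR 4.0.16 (R 4.3.3, robust quasi-likelihood F-test, no covariates), with Benjamini-Hochberg adjustment over all genes kept and a threshold of 0.05. For single values, the smallest exact permutation p with 3 against 3 libraries is 0.1. CPM per kb divides CPM by the effective length in each library. Alternatives used DESeq2 1.42.0, limma 3.58.1, other scalings and filters, log2(TPM + 1) and log2(TPM + 0.1), marker levels as covariates and libraries left out. The count fit was tested on simulated data. No pair of libraries of a group agreed within sampling noise.

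The genes named are all aquaporins, from each function list the 2 of smallest p and the 2 of highest level, and for each tested member the 3 protein-coding genes of at least 1 TPM nearest in centred log2 CPM (prior count 2). The rule also takes the 2 genes of highest level from each marker list, printed only where they stand beside an aquaporin result; markers at 0 throughout are named too. The members and lists were chosen with earlier results of these data known. Of the listed genes, 2 (Gyk and Zp4) matched no symbol. Counting intervals and floors take in no other error. Of the genes this rule names, 1 is not reported here.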

Additional observations from a re-analysis of the deposited data

How the results depend on the processing

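No aquaporin passed an adjusted p of 0.05 under any of the alternatives run (18 for Aqp11, 19 for each of the other 4 tested genes), with smallest adjusted p of 0.954 for Aqp1, 0.828 for Aqp3, 0.952 for Aqp4, 0.960 for Aqp5 and 0.986 for Aqp11. The sign was kept under 17 of 19 alternatives for Aqp1, 18 of 19 for Aqp3, 14 of 19 for Aqp4, 12 of 19 for Aqp5 and 13 of 18 for Aqp11. With 1 library left out, log2 fold changes ran from -0.69 to 0.14 for Aqp1, -0.20 to 1.08 for Aqp3, -1.37 to 0.50 for Aqp4, -0.64 to 0.59 for Aqp5 and -2.02 to 1.42 for Aqp11, and the count of genes called from 0 to 4. The sign turned without Tcf4+/- replicate 3 for Aqp1, without Tcf4+/- replicate 1 for Aqp3 and Aqp5 (-0.20 and -0.64), without Col8a2 replicate 2 for Aqp4 and Aqp5 (0.50 and -0.20), and without Col8a2 replicate 3 or Tcf4+/- replicate 2 for Aqp11 (-0.32 and -2.02). With the lens level as a covariate Aqp1 was at 0.12 and Aqp4 at 0.87. With the epithelial level Aqp5 was at -0.41 and Aqp11 at -0.30, and with the endothelial level Aqp11 was at -1.52. Without Tcf4+/- replicates 2 and 3, which leaves 1 library assumed to vary like the others, Aqp11 was at -1.10 and Aqp3 at 1.32 (edgeR unadjusted p = 0.0443). With limma voom Aqp4 was at 0.89 and Aqp5 at -0.28. On log2(TPM + 1) Aqp5 was at -0.55, and on log2(TPM + 0.1) Aqp5 was at -0.55 and Aqp4 at 0.27; the median of all genes lay at -0.15 and -0.18 on these scales, where mitochondrial tRNA genes took 15.6% and 15.8% of TPM in Tcf4+/- replicates 2 and 3 and 0.0% elsewhere. The cause of these changes of sign was not tested. With the replicate block Aqp4 was at 0.45 and Aqp5 at -0.29, and 0 genes were called. The deviations of libraries of the same number from their group means correlated at -0.02, 0.14 and -0.02 for numbers 1, 2 and 3. Pairs of unlike number ran from -0.09 to 0.09. With 3 libraries per group, these values cannot show whether libraries of the same number share anything besides it. DESeq2 called 107 genes (76 higher, 31 lower), and 4 genes were called without Col8a2 replicate 3, none of them an aquaporin. Aqp11 did not pass a mean of at least 5 CPM. Without the filter Aqp7 had a log2 fold change of 1.41 with a standard error of 2.63 from 9 counts. The Aqp7 value rests on few counts, of which 5 were in Tcf4+/- replicate 3, the library of lowest total count. The values of the 5 tested genes are limited by the spread between libraries. For Aqp11 they also rest on counts of 2 and 1 in Tcf4+/- replicate 3 and Col8a2 replicate 3.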

Other observations

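The deposited lengths, which are means over the transcripts of a gene weighted by their estimated abundance, differed between libraries most for Aqp11 and Aqp4. Aqp1, with 1 listed transcript, had a length of 2627 bases in every library, while Aqp5, with 5, ran from 1501 to 1548 bases and Aqp3, with 2, from 1602 to 1756 bases. The effective length of Aqp1 was 2472 and 2477 bases in Tcf4+/- replicates 2 and 3, the libraries with high lens markers. It was 2386 bases in Tcf4+/- replicate 1 and 2393 to 2416 bases in the Col8a2 group. The part of this difference between libraries in the aquaporin values was not tested. Aqp11, with 5 listed transcripts, stood at 1281 bases in Tcf4+/- replicate 1 and 2149 bases in Tcf4+/- replicate 2, against 2652 and 2519 bases in Col8a2 replicates 1 and 2. These are the 4 libraries with 71 or more counts. Through this difference Aqp11 was lower in Tcf4+/- replicate 1 than in Col8a2 replicate 1 in CPM (1.504 against 2.85) and higher per kb (1.45 against 1.17 CPM per kb). Aqp4, with 12 listed transcripts, stood at 3806 bases in Tcf4+/- replicate 3 and at 4895 to 4944 bases in the other 5 libraries. The files give 1 mean per gene, so the transcripts behind these lengths were not analysed here.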
